A study of Danio rerio with 12 samples.

Results

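Cells that carried only the endothelial reporter and cells that carried only the sele reporter were compared for open chromatin. The zebrafish embryos were wild type and untreated, and every embryo carried both transgenes, kdrl:mCherry and sele:GFP. At 72 hpf (hours post fertilisation) whole embryos were dissociated and sorted by fluorescence. The mCherry only fraction was kdrl:mCherry+, sele:GFP- (3 samples), and the GFP only fraction was kdrl:mCherry-, sele:GFP+ (3 samples). The double positive (3 samples) and double negative (3 samples) fractions of the same kind of embryos served as further readouts. Each sample used 12000 to 50000 cells. The assay was ATAC-seq, where the Tn5 enzyme inserts sequencing adaptors into exposed DNA. Only 1 peak list per fraction was analysed, named in the labels of all 3 samples, so there are no values per sample, no replicate error and no p-values. The fractions were defined by fluorescence alone, and each can hold several cell types.

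The compared regions were all peaks of the mCherry only and GFP only lists on chromosomes 1 to 25. These were 272624 of the 529602 peaks in the 4 lists, with 134260 from mCherry only and 138364 from GFP only. A peak was shared if it overlapped a peak of the other list by 1 bp or more. Otherwise it is called an mCherry-side or a GFP-side peak. A side peak was not called in the other list, which does not mean that the region was closed there. No peak of either list had fewer than 11 reads at its summit.

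The product of kdrl is a growth factor receptor of blood vessels, and its reporter is widely used to mark vascular endothelium in zebrafish. The gene sele encodes E-selectin, an adhesion molecule with which endothelium holds passing blood cells. In fish larvae the sinusoids of the tail are lined by endothelium that serves as a niche for young blood stem cells, which is the subject of the series. Open regions of chromatin include promoters, enhancers and other stretches where regulatory proteins displace nucleosomes. A fluorescent reporter shows that its own promoter was active, and the protein can persist after that activity ends. Peaks near kdrl, sele or other marker genes were not analysed here, since no annotation in the build of the peaks (danRer7) was used.

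The lists were of similar size and depth. They covered 57.6 Mb in mCherry only and 55.1 Mb in GFP only. The genome-wide background, which grows with the depth of a list, was 4.46 reads in mCherry only and 4.26 reads in GFP only. Dividing the reads at a summit by that background gives its height. Median height was 6.28 in mCherry only and 5.86 in GFP only. The double positive list was shorter, with 90687 peaks, and the double negative list longer, with 166282.

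Together both lists defined 182420 separate regions. Of these, 46077 (25.3%) were mCherry-side, 49182 (27.0%) were GFP-side and 87161 (47.8%) were shared. Counted as peaks, 34.3% of the mCherry only list was mCherry-side and 35.5% of the GFP only list was GFP-side, with Wilson 95% intervals of 34.1 to 34.6 and 35.3 to 35.8. All intervals here cover counting error only. In bases, 25.8% of what the mCherry only list covered and 28.2% of what the GFP only list covered lay in side peaks. In bulk samples, fewer cells of a type and less open chromatin per cell cannot be told apart.

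Side peaks were narrow and low on both sides. Median width was 285 bp (quartiles 229 and 378) for mCherry-side peaks and 280 bp (225 and 367) for GFP-side peaks. Shared peaks measured 431 bp (304 and 601) in mCherry only and 391 bp (286 and 540) in GFP only. Peaks of 1000 bp or more numbered 59 among mCherry-side peaks and 55 among GFP-side peaks, against 3333 shared peaks of mCherry only and 2151 of GFP only. The median summit held 21 reads in mCherry-side peaks and 19 in GFP-side peaks, against 35 in shared peaks of mCherry only and 30 in those of GFP only.

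Few peaks lay within 10 bp of the edge of the 1 bp rule, but the choice of overlap rule changed the split. Reciprocal overlap of 50% made 43.2% of mCherry only and 44.9% of GFP only side peaks. Requiring summits within 200 bp made it 39.6% of mCherry only and 41.4% of GFP only. In the mCherry only list 74 peaks were shared by 10 bp or less, with a median height of 3.92, and 58 side peaks lay less than 10 bp from a GFP only peak, with a median height of 3.70. In the GFP only list 85 peaks just met the rule, with a median height of 3.99, and 64 just missed it, with a median height of 4.22. The median gap to the nearest peak of the other list was 3290 bp for mCherry-side peaks and 3730 bp for GFP-side peaks. Within 1 kb of such a peak lay 17.3% of mCherry-side and 14.9% of GFP-side peaks. Beyond 50 kb lay 48 mCherry-side and 191 GFP-side peaks.

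The taller a peak, the less often it was missing from the other list. Below height 4, 60.7% of the mCherry only list and 63.4% of the GFP only list were side peaks. Between heights 4 and 10 the mCherry only list had the larger share of side peaks, with 32.1% against 26.02% in GFP only at heights of 6 to 8. From height 10 upwards the order was turned. At heights of 15 to 20, side peaks made up 6.39% of mCherry only (5.90 to 6.92) and 13.4% of GFP only (12.7 to 14.2). At height 20 or more these were 146 of 9975 mCherry only peaks (1.46%, 1.25 to 1.72) and 434 of 7727 GFP only peaks (5.62%, 5.13 to 6.15). Both sets of tallest side peaks were spread over 25 chromosomes, with at most 10 mCherry-side and 25 GFP-side peaks on any one of them.

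**Figure D1:**
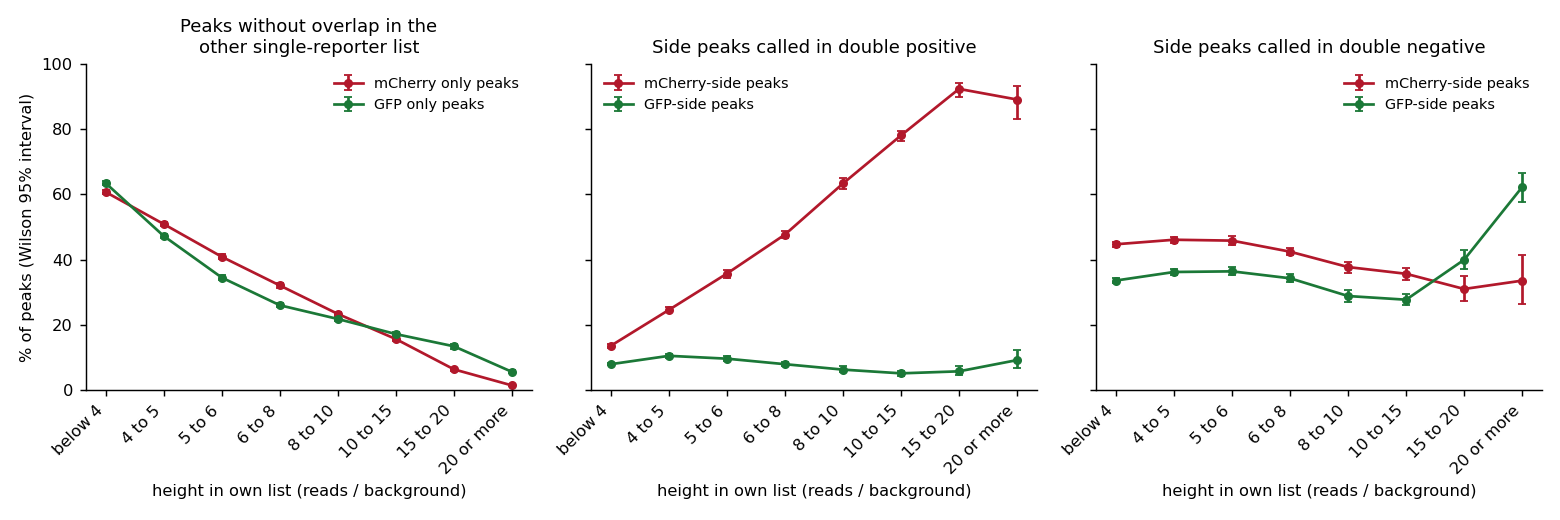
Percentage of peaks (y axis) by height in their own list (x axis), with Wilson 95% intervals, for mCherry only (red) and GFP only (green). The left panel gives peaks without overlap in the other single-reporter list, the middle panel side peaks called in double positive, where the red line climbs to 92.3% and the green one stays at or below 10.5%, and the right panel side peaks called in double negative.

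Where the single-reporter lists differed, the double positive list held a larger share of mCherry-side than of GFP-side peaks, but a minority of both. It held 15317 of the 46077 mCherry-side peaks (33.2%, 32.8 to 33.7) and 4174 of the 49182 GFP-side peaks (8.49%, 8.24 to 8.74). The difference was 24.8 percentage points. Among shared peaks the double positive list held 68.8% of those of mCherry only and 68.9% of those of GFP only.

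This gap widened with height. Of mCherry-side peaks below height 4, 13.6% were called in double positive, and the share grew in each bin to 92.3% (89.8 to 94.2) at heights of 15 to 20. It was 89.0% (82.9 to 93.1) at height 20 or more. GFP-side peaks had shares between 5.16% and 10.5% in every bin, with no such climb. At heights of 10 to 15 the double positive list held 78.0% of mCherry-side peaks and 5.16% of GFP-side peaks, while it held 91.8% of the shared peaks of mCherry only and 85.4% of those of GFP only.

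Seen from the double positive list, 61458 of its 90687 peaks met both single-reporter lists and 9447 met neither. A further 15528 peaks met mCherry only alone and 4254 met GFP only alone, a ratio of 3.65. Among double positive peaks of height 10 or more 3698 met mCherry only alone and 97 GFP only alone, and at height 20 or more 633 met mCherry only alone and 14 GFP only alone. Double positive peaks that took a side were thus mCherry-sided in 78.5% (77.9 to 79.1) of cases overall and 97.8% (96.4 to 98.7) at height 20 or more.

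The double negative list also held the larger share on the mCherry side, but not at every height. It held 43.7% of mCherry-side peaks (43.2 to 44.1) and 34.4% of GFP-side peaks (34.0 to 34.8). Up to height 15 its share was larger on the mCherry side in every bin. At height 20 or more it held 33.6% of mCherry-side peaks (26.4 to 41.6) and 62.2% of GFP-side peaks (57.6 to 66.6). The 49 such mCherry-side peaks with a double negative peak had a median height of 23.5 in mCherry only and 12.3 in double negative. The 270 GFP-side peaks of height 20 or more that had a double negative peak reached a median height of 22.5 in GFP only and 5.38 in double negative, and 5 of them were higher in double negative. Seen from the double negative list, peaks that took a side were mCherry-sided in 54.0% of cases (53.5 to 54.5). Among double negative peaks of height 10 or more, 2397 met mCherry only alone and 911 GFP only alone (72.5% mCherry-sided). At a double negative height of 20 or more these were 88 and 22 (80.0%, 71.6 to 86.4).

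The partners of tall side peaks therefore differed by side. Of 3514 mCherry-side peaks of height 10 or more, 1882 (53.6%) were also called in double positive and not in double negative, and 408 (11.6%) in neither. Of 4341 GFP-side peaks of that height, 98 (2.26%) were called in double positive and not in double negative, and 2765 (63.7%) in neither. Called in double negative and not in double positive were 268 of the mCherry-side peaks (7.63%) and 1328 of the GFP-side peaks (30.6%).

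**Figure D2:**
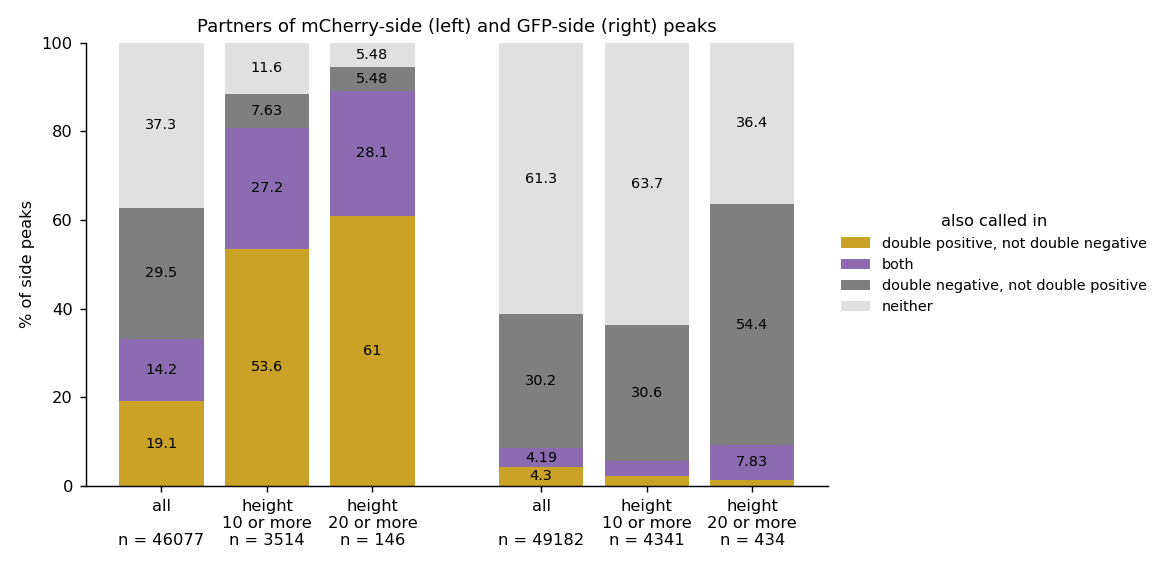
Share of mCherry-side peaks (3 bars on the left) and GFP-side peaks (3 bars on the right) also called in double positive, double negative, both or neither (y axis, % of side peaks), for all side peaks and for those of height 10 or more and 20 or more in their own list. At height 10 or more, 53.6% of mCherry-side peaks fall in double positive but not double negative, and 63.7% of GFP-side peaks in neither.

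The heights of side peaks in the other fractions depended on how peaks were selected. Among side peaks of height 10 or more in their own list, a choice that favours high values in that list, the double positive height was 0.873 times the mCherry only height in the median at 2838 mCherry-side peaks and 0.427 times the GFP only height at 248 GFP-side peaks. It was higher than in the own list at 41.4% of these mCherry-side peaks and 16.9% of these GFP-side peaks. Double negative heights were 0.540 times those of mCherry only at 1224 mCherry-side peaks and 0.354 times those of GFP only at 1478 GFP-side peaks. Over side peaks of any height with a single partner, the median ratios in double positive were 1.07 at mCherry-side peaks and 0.979 at GFP-side peaks, and in double negative 1.15 at mCherry-side peaks and 1.02 at GFP-side peaks. Taking a geometric mean of own and partner height of 10 or more, which lets in peaks through a high partner, they were 1.35 at mCherry-side and 0.976 at GFP-side peaks in double positive and 1.14 at mCherry-side and 0.423 at GFP-side peaks in double negative. Under all 3 selections the ratio was larger on the mCherry side in both lists. At GFP-side peaks in double positive it stayed below 1 throughout. For the other ratios, whether they were above 1 changed with the selection.

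The mCherry-side peak with the highest fold lay on chromosome 7, from 20242704 to 20243134 in danRer7. Its summit had 78 reads in mCherry only (exact Poisson 95% interval 61.7 to 97.3), 69 in double positive and 19 in double negative. As heights, on the lower background of double positive, these were 17.5 in mCherry only, 19.0 in double positive and 4.26 in double negative. The nearest GFP only peak was 27973 bp away. The next, on chromosome 6 from 33721551 to 33721995, had 91 reads in mCherry only (73.3 to 112), 96 in double positive and no double negative peak. On chromosome 16, from 43043220 to 43043741, 101 reads in mCherry only (82.3 to 123) stood beside 96 in double positive. The heights there were 22.7 in mCherry only and 26.4 in double positive. All 10 leading mCherry-side regions were called in double positive, at heights of 7.71 to 29.5, and 2 of them in double negative. Of all mCherry-side peaks of height 20 or more, 89.0% were called in double positive and 33.6% in double negative. The 10 regions lay on 9 chromosomes, with folds of 13.3 to 14.5 and widths of 418 to 795 bp.

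Leading GFP-side regions were mostly not called in double positive. The first lay on chromosome 19, from 20949510 to 20950028. It had 97 reads in GFP only (78.7 to 118), no double positive peak and 22 reads in double negative. The next, on chromosome 14 from 8855537 to 8856295, had 104 reads in GFP only (85.0 to 126) and no peak in double positive or double negative. The one after that, on chromosome 6 from 56286991 to 56287471, had 89 reads in GFP only (71.5 to 110). It had no double positive peak and 37 reads in double negative. On chromosome 14, from 8968534 to 8969275, 114 reads in GFP only (94.0 to 137) stood beside 19 in double negative. Of the 10 leading GFP-side regions 1 was called in double positive, on chromosome 8 from 7151581 to 7152493, with 100 reads in GFP only, 17 in double positive and 39 in double negative. The double negative list had a peak in 9 of the 10, at heights of 4.26 to 8.73, below all of the GFP only heights of 19.2 to 26.7. Of all GFP-side peaks of height 20 or more, 62.2% were called in double negative and 9.22% in double positive. At height 10 or more the double negative share was 34.0%. The 10 regions lay on 7 chromosomes. On chromosome 14, which held 1969 of all 49182 GFP-side peaks, lay 4 of the regions.

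Shared regions were mostly alike in both fractions. Of the 87161 shared regions, 84243 (96.7%) held 1 peak of each list, and these one-to-one regions allow heights to be compared. The mCherry only height was 1.09 times the GFP only height in the median (quartiles 0.867 and 1.37), a shift of 0.13 on the log2 scale. Median widths were 428 bp in mCherry only and 391 bp in GFP only, and the median ratio of widths was 0.08 on the log2 scale. Summits lay 29 bp apart in the median and within 50 bp in 64.3% of the regions.

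Heights differed by 2-fold or more in a minority. They were at least 2-fold higher in mCherry only in 5462 regions (6.48% of 84243) and at least 2-fold higher in GFP only in 3268 regions (3.88%). The excess on the mCherry side rests on the scale. With heights scaled so that the median shared region is equal, the counts were 4010 for mCherry only and 4395 for GFP only, so that mCherry only made up 47.7% of the calls in place of 62.6%. Exact Poisson 95% intervals of the 2 heights were apart in 4658 of the 5462 regions higher in mCherry only and in 2729 of the 3268 higher in GFP only. These regions were chosen on the same reads, so the intervals are no separate support for them. At a geometric mean height of 8 to 10 the intervals were apart in all 1336 regions higher in mCherry only and all 705 higher in GFP only. With the reads at such heights, a 2-fold difference sets the intervals apart nearly by construction, so this is no further result. Differences of 2-fold or more were most frequent at middle heights. At low heights the lowest height that was called limits the ratio. The highest ratio of mCherry only to GFP only was 1.99 below a mean of 4 and 3.11 at 4 to 5. At a geometric mean height of 8 to 10, 12.3% of regions were 2-fold higher in mCherry only and 6.49% in GFP only. Below 4, near the lowest height that was called, 0 of 6188 regions were 2-fold higher in mCherry only and 16 in GFP only. At 20 or more, 30 of 7055 regions were 2-fold higher in mCherry only and 18 in GFP only. At 40 or more 0 of 569 regions were. The highest summit held 370 reads in mCherry only, 369 in GFP only, 371 in double positive and 365 in double negative, while the backgrounds of those lists were 4.46, 4.26, 3.63 and 4.465 reads. The part that a common upper limit of reads may have in the ratios of the tallest regions was not tested.

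**Figure D3:**
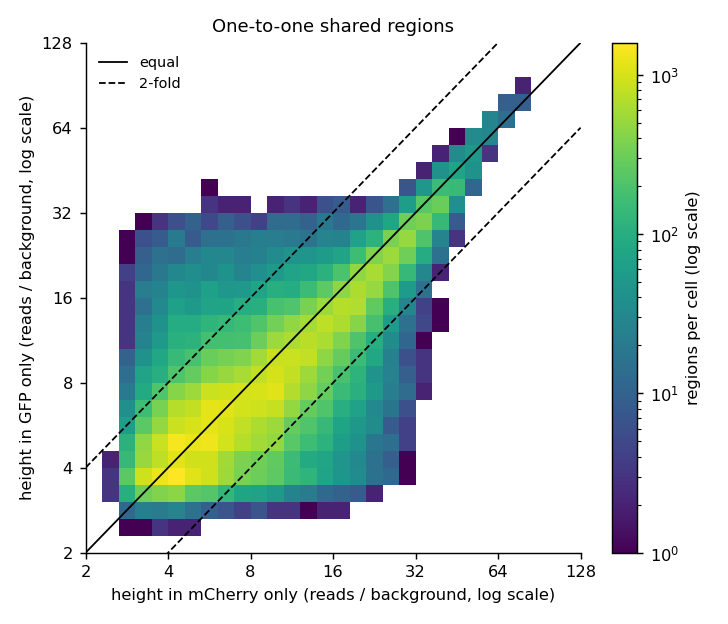
Heights of the 84243 one-to-one shared regions in mCherry only (x axis) and GFP only (y axis), in reads over background on log scales, with colour giving the number of regions per cell. The solid line marks equal heights and the dashed lines 2-fold differences, beyond which lie 5462 regions on the mCherry side and 3268 on the GFP side; the heights of both lists end near the same number of reads, 370 in mCherry only and 369 in GFP only.

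The tallest shared regions had similar numbers of reads in all 4 lists, close to the highest number in each, so their heights followed the backgrounds. On chromosome 17, the region from 40105818 to 40107524 led with 358 reads in mCherry only (322 to 397), 367 in GFP only (330 to 407), 351 in double positive and 362 in double negative. As heights these were 80.3 in mCherry only, 86.1 in GFP only, 96.7 in double positive and 81.1 in double negative. Among the 5 tallest, 3 lay on chromosome 10, between 16740297 and 16752657. The one from 16745227 to 16746054 had 355 reads in mCherry only and 364 in GFP only. The counting intervals of the reads in mCherry only and GFP only overlapped in all 5.

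Where double positive had a peak at shared regions that differed, its height was also nearer to mCherry only more often than not. Of the 5462 regions 2-fold higher in mCherry only, 570 (10.4%) had no double positive peak, and of the 3268 regions 2-fold higher in GFP only, 2003 (61.3%) had none. Where there was a single double positive peak, its height was nearer on the log scale to mCherry only in 3605 of 4821 regions of the first kind (74.8%, 73.5 to 76.0). In regions of the second kind it was nearer to mCherry only in 1153 of 1239 (93.1%, 91.5 to 94.3), and to GFP only in the remaining 6.94%. Over all one-to-one regions with a single double positive peak the share was 57.5% (57.1 to 57.9). In regions of the second kind mCherry only is the lower list. Any low double positive height counts as nearer to it there, so nearness does not mean equal height.

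The double negative list was on the lower side in both kinds. Its height was nearer to GFP only in 2675 of 4369 regions 2-fold higher in mCherry only (61.2%, 59.8 to 62.7). It was nearer to mCherry only in 1967 of 2723 regions 2-fold higher in GFP only (72.2%, 70.5 to 73.9). Over all one-to-one regions it was nearer to mCherry only in 54.4%.

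The double positive heights were graded. Among regions of geometric mean height 10 or more, double positive was compared with the geometric mean of both single-reporter heights. Where mCherry only was more than 4-fold higher than GFP only, double positive stood 1.24 above that mean on the log2 scale in the median (lower quartile 0.85, 113 regions). Where mCherry only was more than 4-fold lower, its median was -1.22 (quartiles -1.42 and -1.04, 68 regions). In the bins between, its median rose from each bin to the next. It lay below the heights of both single-reporter lists in every bin where GFP only was higher. Only regions with a single double positive peak are included, and 48.9% of all regions in the lowest bin had no double positive peak. The double negative median was -0.78 where mCherry only was more than 4-fold higher (79 regions) and -0.61 where it was more than 4-fold lower (133 regions), and it was highest in the middle, at -0.01. In the bins with a log2 ratio from -1.5 to 0 the double negative median also lay below both single-reporter lists.

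**Figure D4:**
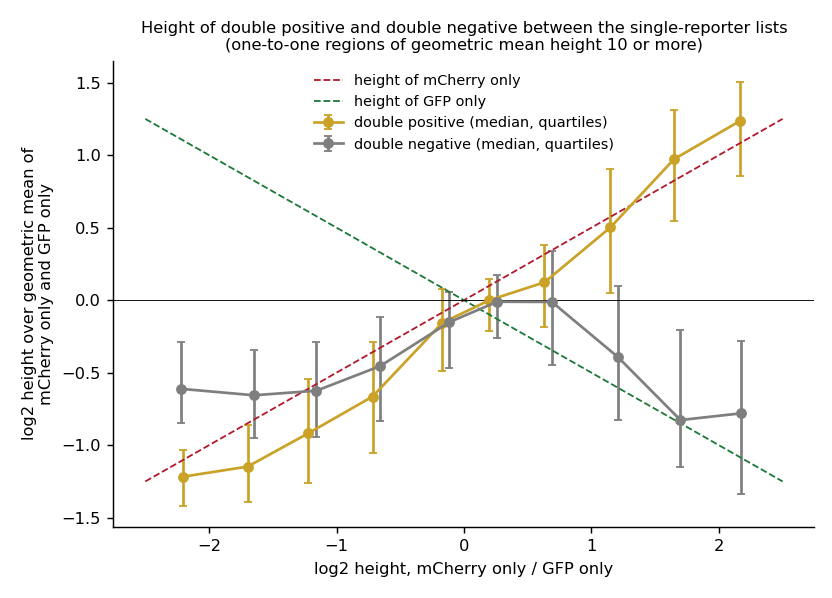
Height of double positive (yellow) and double negative (grey) relative to the geometric mean of mCherry only and GFP only (y axis, log2), against the log2 ratio of mCherry only over GFP only (x axis), as medians with quartiles in bins of one-to-one regions of geometric mean height 10 or more. Dashed lines show where the mCherry only (red) and GFP only (green) heights lie. The double positive medians rise from -1.22 to 1.24 and lie below both dashed lines where GFP only was higher. The double negative medians are lower at both ends than in the middle, and lie below both dashed lines in the bins from -1.5 to 0.

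The regions with the greatest height ratios show this pattern singly. On chromosome 2, from 1027031 to 1027923, the summit had 121 reads in mCherry only (100 to 145), 15 in GFP only (8.40 to 24.7), 121 in double positive and 19 in double negative. The height was 7.72 times as large in mCherry only as in GFP only. It was 27.1 in mCherry only and 33.3 in double positive. On chromosome 25, from 21753546 to 21754110, the summit had 118 reads in mCherry only, 15 in GFP only, 110 in double positive and no double negative peak. The heights there were 26.5 in mCherry only and 30.3 in double positive. A pair of such regions lay near each other on chromosome 16, from 52124599 to 52125180 and from 52146326 to 52147086, with 121 and 114 reads in mCherry only and 16 and 15 in GFP only. All 10 regions with the highest ratio had a double positive peak, with 46 to 131 reads. This was near the general share, since 1.30% of all 386 regions more than 4-fold higher in mCherry only had no double positive peak.

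At the other extreme, the region on chromosome 4 from 8842882 to 8843631 had 13 reads in mCherry only (6.92 to 22.2), 114 in GFP only (94.0 to 137), no double positive peak and 28 in double negative. Its height was 9.17 times as large in GFP only as in mCherry only. On chromosome 11, from 43471412 to 43472163, it was 14 reads in mCherry only, 113 in GFP only, no double positive peak and 18 in double negative. Of the 10 regions with the lowest ratio of mCherry only to GFP only, 7 had no double positive peak, and the other 3 had 11 to 15 double positive reads. All 10 had a double negative peak, with 18 to 49 reads. These counts were near the general shares. Of all 392 regions more than 4-fold lower in mCherry only, 63.0% had no double positive peak and 8.93% no double negative peak.

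Double positive widths were nearer to mCherry only more often than not, though less often than heights were at regions 2-fold apart in height. Compared with double positive, double negative widths were so more often where mCherry only was wider and less often where GFP only was wider. Where an mCherry only peak was 2-fold wider than its GFP only partner (4177 regions), the width of a single double positive peak was nearer to mCherry only in 61.2% of 2846 cases. Where the GFP only peak was 2-fold wider (2282 regions), it was nearer to mCherry only in 76.2% of 772 cases. The double negative width was nearer to mCherry only in 68.4% of 3264 cases of the wider mCherry only peaks and in 39.7% of 1707 cases of the wider GFP only peaks. Summits lay 100 bp or more apart in 15748 regions. There the double positive summit was nearer to that of mCherry only in 5424 of 8685 cases (62.5%, 61.4 to 63.5), and the double negative summit in 6698 of 12740 (52.6%, 51.7 to 53.4).

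Some shared regions were 1 peak in one list and several in the other. An mCherry only peak overlapped 2 or more GFP only peaks in 2001 cases, with a median width of 910 bp, and a GFP only peak overlapped 2 or more mCherry only peaks in 1008 cases, with a median width of 776 bp. The double positive list had a single peak in 57.6% of these mCherry only peaks (55.4 to 59.7) and in 50.6% of these GFP only peaks (47.5 to 53.7). It had 2 or more in 30.1% of the mCherry only and 26.6% of the GFP only peaks, and none in 12.3% of the mCherry only and 22.8% of the GFP only peaks. A single peak was thus the most frequent form in both, also where mCherry only had several peaks. Double negative too had mostly a single peak, in 73.6% of the mCherry only and 69.3% of the GFP only peaks.

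Side peaks were found on every chromosome in similar proportion, with chromosome 4 apart. By chromosome, 31.1% to 36.2% of the mCherry only list and 32.8% to 41.3% of the GFP only list were side peaks, and the highest GFP only share was on chromosome 4. On all 25 chromosomes the double positive list held a larger share of mCherry-side than of GFP-side peaks. These shares ran from 29.7% to 37.5% for mCherry-side peaks and from 6.44% to 14.8% for GFP-side peaks, again highest on chromosome 4.

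**Figure D5:**
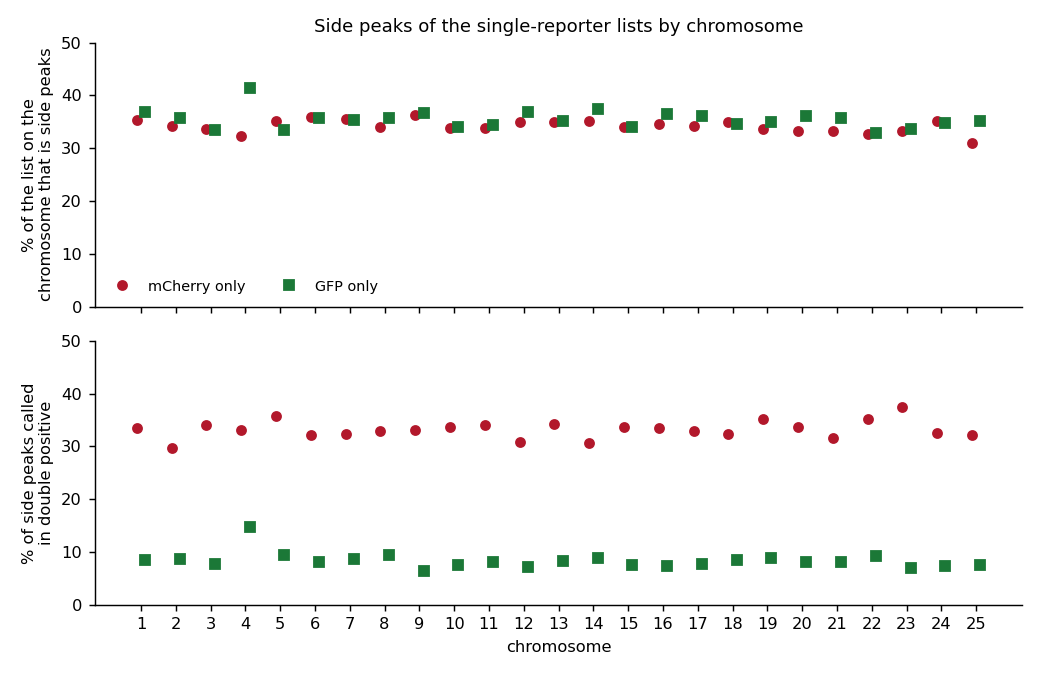
Side peaks as a percentage of each list on a chromosome (upper panel) and side peaks called in double positive as a percentage of side peaks (lower panel) for mCherry only (red circles) and GFP only (green squares), by chromosome. The red circles lie above the green squares on all 25 chromosomes in the lower panel, and chromosome 4 has the highest green value in both panels, 41.3% and 14.8%.

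Beyond 25 Mb on chromosome 4 lay 2514 mCherry only and 3459 GFP only peaks, and the log2 ratio of their shares of the lists was -0.42. Side peaks made up 29.3% of the mCherry only and 48.6% of the GFP only peaks there. In windows of 5 Mb, the log2 ratio of mCherry-side to GFP-side shares ranged from -1.56 to 0.84 over 277 windows with at least 100 side peaks. The 3 lowest windows were on chromosome 4, from 55 to 60 Mb with 71 mCherry-side and 223 GFP-side peaks, from 40 to 45 Mb with 100 mCherry-side and 252 GFP-side peaks, and from 35 to 40 Mb with 87 mCherry-side and 217 GFP-side peaks. Few of these were tall. In the same order, 2, 9 and 2 of the GFP-side and 2, 0 and 6 of the mCherry-side peaks had a height of 10 or more. Of the 277 windows, 275 had the larger double positive share on the mCherry side. Both exceptions were on chromosome 4, from 35 to 40 Mb and from 45 to 50 Mb, where the shares were 24.1% on the mCherry side against 24.4% on the GFP side and 25% on the mCherry side against 25.5% on the GFP side.

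The highest ratio of mCherry-side to GFP-side shares was on chromosome 7 from 75 to 80 Mb, with 99 mCherry-side and 59 GFP-side peaks. Chromosome 5 from 20 to 25 Mb followed with 226 mCherry-side and 152 GFP-side peaks, of which 34 mCherry-side and 8 GFP-side peaks had a height of 10 or more. Chromosome 14 from 0 to 5 Mb came next with 241 mCherry-side and 170 GFP-side peaks.

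Side peaks also lay in runs, taken as summits of 1 side with gaps of at most 20 kb. There were 1963 runs of 5 or more mCherry-side peaks and 2042 of GFP-side peaks. These runs held 13564 of the 46077 mCherry-side peaks and 13714 of the 49182 GFP-side peaks, so most side peaks lay in none. How many runs random placement would give was not tested. The longest mCherry-side run had 27 side peaks on chromosome 1 from 58373911 to 58550047. In that stretch mCherry only had 33 peaks, GFP only 11, double positive 16 and double negative 10. Of its side peaks 10 were called in double positive and 4 in double negative. Over all mCherry-side peaks the shares were 33.2% in double positive and 43.7% in double negative. GFP-side runs reached 33 peaks at 2 places. On chromosome 1 from 52767242 to 52925190 there were 11 mCherry only, 43 GFP only, 8 double positive and 17 double negative peaks, and 1 of the 33 side peaks was called in double positive. On chromosome 16 from 25492622 to 25726442 there were 32 mCherry only, 52 GFP only, 26 double positive and 27 double negative peaks, and 5 of the 33 side peaks were called in double positive. Over all GFP-side peaks the double positive share was 8.49%.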

How the data were processed

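Open chromatin was measured by ATAC-seq in 4 sorted fractions of 3 samples each. The submitters' processing notes name the build danRer7, the aligner Bowtie2 (2.2.1) and the peak caller MACS2 (2.1.0). Read filters, Tn5 offset, caller settings and the pooling of samples, all of which can change widths and summits, were not given in the sources used here. Each list the authors deposited gives a display score and per peak a fold (linear ratio over background) and 2 significance columns, −log10 p and −log10 q, besides the summit offset, all the authors' own values. The score was not used further.

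Reads at a summit were recovered as the whole number that gives both fold and −log10 p under a Poisson tail with a pseudocount of 1. The largest misfit of −log10 p was 0.000382 in the 4 lists, and the next-best whole number missed by at least 0.00808. Expected backgrounds above the lowest of a list were multiples of 0.02 reads in 100% of peaks, within 0.1 of a step. That lowest background was taken as the genome-wide one. This model of the caller is inferred from the values. Recovery was also run on values simulated under that same model, which cannot check the model itself. Overlaps were run on simulated lists whose true pairs all overlapped by design, so only the computation was checked.

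Overlap was computed with Python 3.11.15, NumPy 2.4.6, pandas 2.3.3 and SciPy 1.17.1. Wilson and exact Poisson intervals are at 95% and cover counting error only. With 1 list per group no test across samples was possible. Named regions are the 10 highest folds per side, the 10 highest and 10 lowest height ratios with a height of 10 or more in either list, the 5 tallest shared regions, the longest runs and the 3 extreme windows each way. Regions, rules and alternatives were chosen with earlier results of these data known. Peaks on chrM, 2 in each single-reporter list, were left out. Planned use of marker genes and nearest genes was not run, since neither genome nor gene models of danRer7 were used here, and no sequence is printed.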

Additional observations from a re-analysis of the deposited data

How the results depend on the processing

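No paired analysis was possible because a group has a single pooled list, and for the same reason leaving out a replicate was not run. In 9 alternatives, 116 values were recomputed for 14 results. Of these values 69 moved beyond counting error (counts: beyond 1.5 times), 47 did not and 0 turned their sign. Shares and counts cannot turn their sign. Only the difference of double positive shares and the log2 ratios of height, width and chromosome 4 could. The order of the 2-fold counts did turn with heights scaled by the median shared region, to 4010 in mCherry only and 4395 in GFP only. Causes of these moves were not tested, apart from those the settings make by construction, such as fewer peaks under a stricter threshold. The double positive share of mCherry-side peaks was above that of GFP-side peaks in all 8 alternatives that gave it. The order of the side shares was not stable: GFP only had the larger share of side peaks as deposited, and mCherry only had it with −log10 q of at least 5, with lists of equal length and with a height of at least 7 in every list.

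With −log10 q of at least 5 in every list, side peaks made up 34.6% of mCherry only and 33.1% of GFP only. Double positive held 37.1% of mCherry-side and 5.29% of GFP-side peaks, a difference of 31.8 points, and double negative 40.1% of mCherry-side and 31.96% of GFP-side peaks. Median log2 ratios were 0.16 for height and 0.0833 for width. Of the regions 2-fold apart, 3525 were higher in mCherry only and 1879 in GFP only, and double positive was nearer to mCherry only in 77.3% of those higher in it.

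With reciprocal overlap of 50%, side peaks made up 43.2% of mCherry only and 44.9% of GFP only. Double positive held 30.3% of mCherry-side and 10.3% of GFP-side peaks, a difference of 19.97 points, double negative held 35.1% of mCherry-side and 27.2% of GFP-side peaks, and the width ratio was 0.0730. With summits within 200 bp, side peaks made up 39.6% of mCherry only and 41.4% of GFP only. Double positive held 10.6% of GFP-side peaks, a difference of 22.3 points, double negative held 39.5% of mCherry-side and 31.7% of GFP-side peaks, and the log2 ratios were 0.14 for height and 0.0842 for width.

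With lists of equal length (90687 peaks each), 34.1% of mCherry only and 33.5% of GFP only were side peaks. Double positive held 53.2% of mCherry-side and 15.2% of GFP-side peaks, a difference of 38.01 points, and double negative 31.3% of mCherry-side and 22.4% of GFP-side peaks. The log2 ratios were 0.17 for height and 0.0842 for width. There were 3070 regions 2-fold higher in mCherry only and 1519 in GFP only, double positive was nearer to GFP only in 4.41% of those higher in it, and the chromosome 4 ratio was -0.50.

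With a height of at least 7 in the counted list (in either list for one-to-one regions), side peaks made up 15.5% of mCherry only and 17.5% of GFP only. Double positive held 67.5% of mCherry-side and 6.36% of GFP-side peaks, a difference of 61.2 points, and double negative 36.9% of mCherry-side and 32.3% of GFP-side peaks. The log2 ratios were 0.22 for height, 0.0878 for width and -0.53 on chromosome 4.

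With a height of at least 7 in every list, side peaks made up 36.8% of mCherry only and 32.2% of GFP only. Double positive held 46.2% of mCherry-side and 5.34% of GFP-side peaks, a difference of 40.8 points, and double negative 33.0% of mCherry-side and 19.98% of GFP-side peaks. The log2 ratios were 0.18 for height, 0.0758 for width and -0.53 on chromosome 4. There were 1083 regions 2-fold higher in mCherry only and 502 in GFP only, and double positive was nearer to mCherry only in 84.6% of those higher in it.

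Without chromosome 4, 35.3% of GFP only peaks were side peaks, double positive held 8.12% of them, and the height ratio was 0.14. With heights scaled by the median shared region, that ratio is 0 by construction. Under this scaling double positive was nearer to mCherry only in 79.8% of regions higher in mCherry only, and nearer to GFP only in 12.3% of those higher in GFP only. The alternative for this last share was chosen after seeing the data.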
